A study of Homo sapiens with 2 samples.

Results

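The nuclear genes for the subunits of the oxidative phosphorylation complexes were compared between WT and MEIS2-/- cells at day 4 of hematopoietic differentiation. They were chosen by name. The NCBI Gene number in the deposited tables was matched to the symbol in RefSeq, and protein-coding genes whose symbols mark a subunit of complex I, II, III, IV or V were kept. This gave 88 genes of 17397 listed, with 38 in complex I, 4 in complex II, 10 in complex III, 17 in complex IV and 19 in complex V. Among the 88 are 2 readthrough loci, NDUFC2-KCTD14 and ATP5MF-PTCD1, and 2 near-copies of other subunit genes, UQCRHL and ATP5MGL. NDUFA4 is now named COXFA4 and so fell outside the rule, and its values are given beside those of its paralog.

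H1 is an established human embryonic stem cell line. The study had 2 libraries, 1 from H1-derived cells labelled wildtype (WT) and 1 from H1-derived cells labelled MEIS2-/-, and they address how loss of the homeobox factor MEIS2 alters hematopoietic differentiation. Cells of both genotypes received 50 ng/ml activinA with 40 ng/ml BMP4 for 2 days, followed by 40 ng/ml VEGF with 50 ng/ml bFGF for another 2 days. The MEIS2-/- line was a clone made with a lentiviral Cas9 vector, 1 guide RNA and puromycin selection, and the sources used here do not say which clone was sequenced. Expression was given as FPKM, the fragment count scaled by transcript length and library size. No counts were given, so library depth is unknown. With 1 library per genotype there is no replicate error, no test and no p-value, and a difference of culture or clone cannot be told apart from the genotype. MEIS2 mRNA was 10.85 FPKM (WT) and 3.44 FPKM (MEIS2-/-), a log2 fold change of -1.63.

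Oxidative phosphorylation takes electrons from NADH at complex I and from succinate at complex II, passes them through complex III and cytochrome c to oxygen at complex IV, and uses the proton gradient so built to make ATP at complex V. Most subunits are encoded in the nucleus and a small set in mitochondrial DNA. None of the 13 genes of the latter set was found by symbol in the deposited values, so they were not analysed here. Undifferentiated human embryonic stem cells are known to rely strongly on glycolysis, and mitochondrial respiration usually gains weight as they differentiate. Several subunits of complex IV exist as paralogs that are used in particular tissues or at low oxygen.

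At day 4 the subunit mRNAs were abundant and differed little between the libraries, with a small number of exceptions. Of the 88 genes, 82 reached 1 FPKM in at least 1 library. In the WT library 23 of these 82 were at 100 FPKM or more, 54 lay between 10 and 100 FPKM and 5 were under 10 FPKM. Their summed FPKM was 6941 (WT) and 7796 (MEIS2-/-), 1.55% and 1.77% of all FPKM, which is 12.3% more in MEIS2-/- cells and 3.74% more after the shift of all genes given below was subtracted. The median log2 fold change, that is MEIS2-/- over WT with a pseudocount of 0.1 FPKM, was 0.15 over the 82 genes and 0.12 over all 13075 genes that reached 1 FPKM. The subunit genes as a group therefore lay close to the centre of all genes.

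At a threshold of 2-fold, 2 of the 82 genes were lower in MEIS2-/- cells, COX4I2 and UQCRHL, where the background share over all genes compared was 7.97%. Both passed the filter through the WT library alone, and with a filter at 5 FPKM the count was 0. The 1 gene at least 2-fold higher was the readthrough locus NDUFC2-KCTD14, against a background of 7.84%. At 1.5-fold, 3 genes were lower (background 14.5%) and 7 were higher (background 18%), and the background of both directions together was 32.5%. The difference was under 1.5-fold for 87.8% of subunit genes and for 67.6% of all genes. The spread depended on the level. At a mean of 1 to 5 FPKM, 25% of only 4 subunit genes, COX4I2 and UQCRHL among them, and 58.1% of other genes were under 1.5-fold. At 5 to 20 FPKM the shares were 62.5% of 8 subunit genes and 71.0% of other genes, which are close for so few genes. At 20 to 50 FPKM these shares were 100% of 22 subunit genes and 76.1% of 2322 other genes. Among genes with a mean of 100 FPKM or more, 91.7% of 24 subunit genes and 80.9% of 691 other genes differed by less than 1.5-fold, and the interquartile range of the log2 fold change was 0.22 and 0.47, respectively. At a mean of 50 to 100 FPKM these ranges were 0.28 over 24 subunit genes and 0.56 over 826 other genes.

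**Figure D1:**
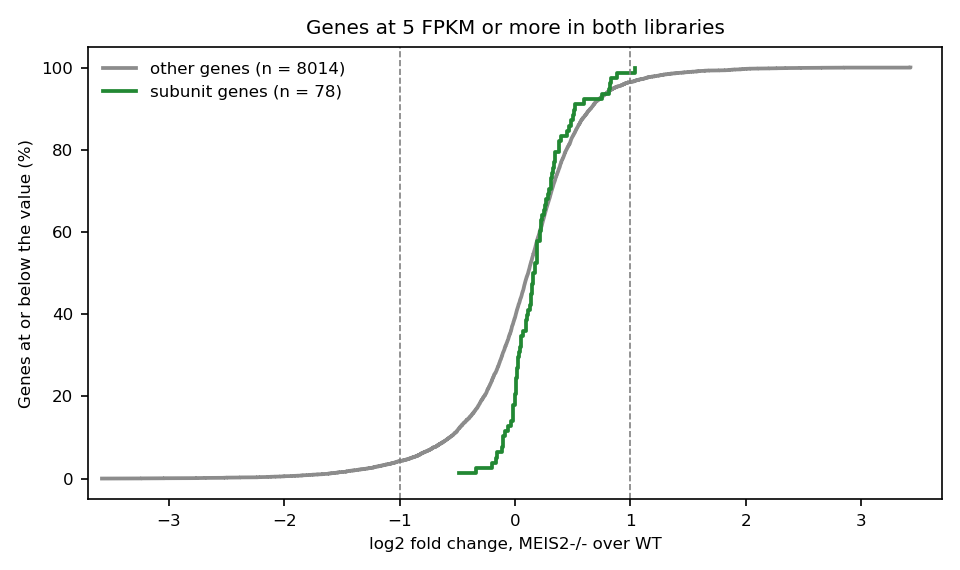
Cumulative share of genes (vertical axis, percent) by log2 fold change of MEIS2-/- over WT (horizontal axis), for genes that reached 5 FPKM in each library, with dashed lines at 2-fold. The curve of the 78 subunit genes is steeper than that of the 8014 other genes, with interquartile ranges of 0.31 and 0.56.

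The direction of these small differences depends on how the libraries are scaled. Of the 82 genes, 64 had a higher and 18 a lower FPKM in MEIS2-/- cells, where the background over all genes was 59.3% higher and 40.6% lower. Among the 8092 genes that reached 5 FPKM in each library the log2 fold change had a median of 0.11, called the shift of all genes here. Log2 fold changes are given without subtracting this shift unless stated. Those between 0 and 0.11 fall below 0 once it is subtracted. After it was subtracted, 46 subunit genes were higher and 36 lower, beside backgrounds of 50.4% and 49.6%, and their median was 0.04. Subunit mRNAs are short, with a median transcript length of 932 nucleotides against 2829 for all genes with a length, and length classes differed somewhat among other genes. Under 700 nucleotides the median log2 fold change of other genes was -0.04 and that of the 24 subunit genes 0.14. Between 700 and 1000 nucleotides the medians were 0.08 for other genes and 0.21 for 20 subunit genes. They were 0.10 and 0.20 (12 subunit genes) between 1000 and 1500 nucleotides and 0.12 and 0.22 (9 subunit genes) between 1500 and 2500. Between 2500 and 4000 nucleotides they were 0.09 and 0.07 (10 subunit genes), and from 4000 nucleotides 0.15 and 0.51 (2 subunit genes). The part of transcript length in the small differences was not tested.

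**Figure D2:**
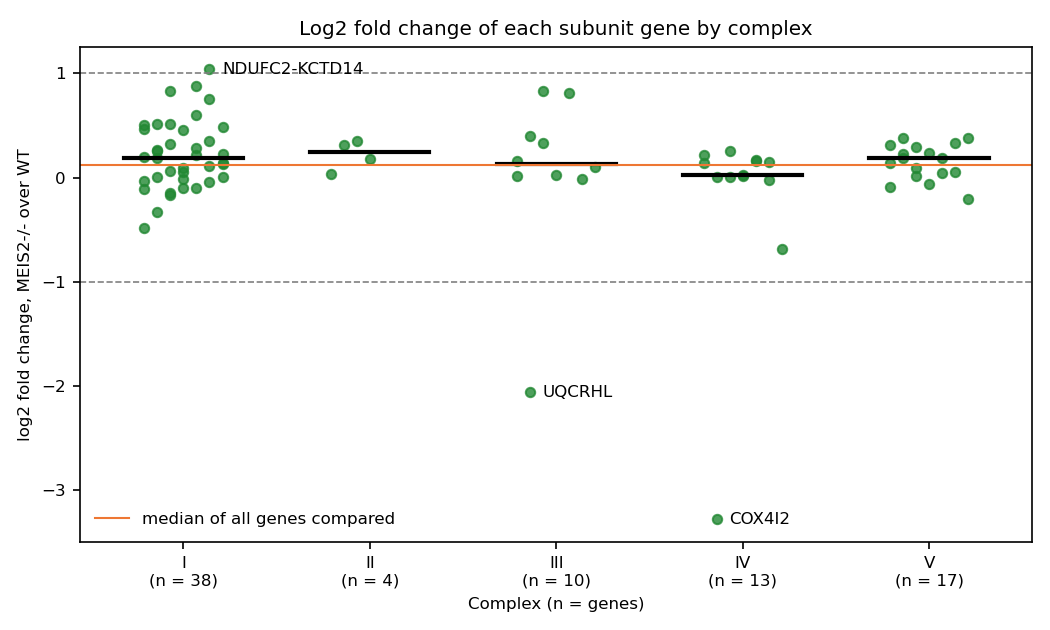
Log2 fold change of MEIS2-/- over WT (vertical axis) for each of the 82 subunit genes at 1 FPKM or more, by complex (horizontal axis); black bars are medians, the orange line is the median of all genes compared (0.12) and dashed lines mark 2-fold. The genes of all 5 complexes sit near the orange line, and COX4I2, UQCRHL and NDUFC2-KCTD14 lie past 2-fold.

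Promoters were examined for letters that the subunit genes share. Genes of respiratory subunits are known targets of the factors NRF1, GABP (an ETS factor) and YY1. The first listed RefSeq window of 300 bases per gene, 250 before and 50 after its start, was found for 67 of the 82 genes and searched on either strand. COX4I2 and UQCRHL were among the 15 genes with no entry in the table. The YY1 motif AANATGGC was in 32.8% of the 67 windows, in 9.97% of the windows of 10607 genes compared and in 6.82% of 27305 windows in all. The NRF1 motif, whose matches are the capitals in NDUFA9, SDHA and UQCRC1 below, was in 23.9% of subunit windows, 11.6% of compared genes and 6.28% of all windows. For the ETS motif CCGGAAG these shares were 29.9%, 18.9% and 10.7%. The last letters of CCGGAAG can overlap the first of AANATGGC. At least 1 of these 3 motifs was in 42 of 67 subunit windows (62.7%) and in 34.6% of those of the genes compared. The hypoxia response core, searched only as ACGTG, was in 26.9% of subunit windows, 26.3% of compared genes and 21.6% of all windows. For the MEIS motif TGACAG the shares were 16.4%, 12.9% and 15.9%. The first 3 motifs were thus more frequent in subunit windows than in those of the genes compared. The hypoxia response core was about as frequent in both, and the MEIS share lay near that of all windows. No test was made. These are matches of letters and not binding sites.

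The 250 bases before the start are shown for 1 gene of each complex that holds an NRF1, ETS or YY1 match there, and for COXFA4L2 (NDUFA4L2), a paralog discussed below whose mRNA was far lower in MEIS2-/- cells. Sequences are from RefSeq on GRCh38.p14, 5′ to 3′ in the direction of transcription, and capitals mark the matches to NRF1, ETS, YY1 or ACGTG.
NDUFA9, chr12:4648864-4649113, plus strand: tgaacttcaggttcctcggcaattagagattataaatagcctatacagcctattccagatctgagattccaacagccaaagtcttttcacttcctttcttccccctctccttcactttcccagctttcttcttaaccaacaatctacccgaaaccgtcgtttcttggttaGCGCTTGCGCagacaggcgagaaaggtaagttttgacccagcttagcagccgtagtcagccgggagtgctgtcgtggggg
SDHA, chr5:218070-218319, plus strand: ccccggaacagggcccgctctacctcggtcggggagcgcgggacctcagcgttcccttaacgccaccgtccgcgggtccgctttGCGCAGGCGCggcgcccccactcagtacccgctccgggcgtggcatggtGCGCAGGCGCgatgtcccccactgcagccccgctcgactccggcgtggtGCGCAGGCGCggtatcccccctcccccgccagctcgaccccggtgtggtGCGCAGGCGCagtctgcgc
UQCRC1, chr3:48609647-48609896, minus strand: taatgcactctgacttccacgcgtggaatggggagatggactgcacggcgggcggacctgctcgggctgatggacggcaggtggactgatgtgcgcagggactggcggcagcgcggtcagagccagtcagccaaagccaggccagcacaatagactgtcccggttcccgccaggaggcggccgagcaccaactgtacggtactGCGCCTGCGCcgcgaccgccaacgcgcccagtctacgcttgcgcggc
COX5B, chr2:97645812-97646061, plus strand: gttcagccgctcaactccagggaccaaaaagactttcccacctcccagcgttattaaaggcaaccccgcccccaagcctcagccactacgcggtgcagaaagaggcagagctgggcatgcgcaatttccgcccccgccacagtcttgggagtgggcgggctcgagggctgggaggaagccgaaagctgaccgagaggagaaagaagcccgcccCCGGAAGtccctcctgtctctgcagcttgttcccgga
ATP5PF, chr21:25735055-25735304, minus strand: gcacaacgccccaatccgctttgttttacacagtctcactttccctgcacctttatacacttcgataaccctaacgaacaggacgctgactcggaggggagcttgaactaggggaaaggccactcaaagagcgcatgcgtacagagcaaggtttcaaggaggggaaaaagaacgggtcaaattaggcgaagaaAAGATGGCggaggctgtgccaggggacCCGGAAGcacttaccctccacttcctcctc
COXFA4L2, chr12:57240763-57241012, minus strand: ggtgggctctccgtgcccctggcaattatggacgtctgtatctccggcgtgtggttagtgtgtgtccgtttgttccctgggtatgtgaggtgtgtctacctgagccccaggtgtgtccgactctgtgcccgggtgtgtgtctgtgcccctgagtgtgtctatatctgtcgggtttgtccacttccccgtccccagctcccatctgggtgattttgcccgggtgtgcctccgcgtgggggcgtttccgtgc
The NRF1 match began 80 bases before the start in NDUFA9 and 47 bases before it in UQCRC1. The stretch of SDHA held 4 copies of the same NRF1 match, beginning 166, 117, 68 and 19 bases before the start. COX5B had an ETS match 37 bases before the start, while ATP5PF had a YY1 match at 57 bases and an ETS match at 30 bases. The stretch of COXFA4L2 held no exact match to the NRF1, ETS or YY1 motif or to ACGTG. Only ACGTG was searched as the hypoxia response core, so GCGTG, which this stretch holds, was not marked.

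Complex I oxidizes NADH and was represented by 38 genes, 28 with higher and 10 with lower FPKM in MEIS2-/- cells (background 59.3% and 40.6%). Its median log2 fold change was 0.19, or 0.08 after the shift of all genes was subtracted. After the shift 22 were higher and 16 lower (background 50.4% and 49.6%). The 7 nuclear core subunits carry the flavin and the iron-sulfur clusters or shape the quinone site, and their median log2 fold change was 0.23, or 0.11 after the shift. NDUFV1, which binds the flavin and NADH, was at 60.6 FPKM (WT) and 83.9 FPKM (MEIS2-/-), a log2 fold change of 0.47. NDUFS3 was at 38.7 and 55.3 FPKM (log2 fold change 0.51). NDUFS1, the largest iron-sulfur subunit, differed little, at 16.6 and 18.2 FPKM. NDUFV2 (46.4 and 55.9 FPKM), NDUFS7 (102 and 110 FPKM) and NDUFS8 (115 and 135 FPKM) had log2 fold changes of 0.27, 0.11 and 0.23.

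The supernumerary subunits of complex I have no redox centre and take part in its assembly and stability. Over the 30 of these genes the log2 fold change ran from -0.33 to 0.88, with a median of 0.16, or 0.05 after the shift. The highest was NDUFA9, which sits near the joint of the arms and was at 13.1 FPKM (WT) and 24.3 FPKM (MEIS2-/-). NDUFB2, in the membrane arm, was at 71.8 and 128 FPKM with a log2 fold change of 0.83. NDUFAB1, the mitochondrial acyl carrier protein, was at 66.5 and 112 FPKM, a log2 fold change of 0.76. These 3 genes and NDUFS6, at 105 and 159 FPKM (log2 fold change 0.60), were the 4 supernumerary genes past 1.5-fold. Next came NDUFA11 (130 and 186 FPKM), NDUFB7 (98.5 and 139 FPKM) and NDUFB6 (28.8 and 40.2 FPKM), with log2 fold changes of 0.52, 0.50 and 0.48. NDUFB8 lay lowest, at 115 FPKM (WT) and 90.9 FPKM (MEIS2-/-) (log2 fold change -0.33). Its protein level is widely used as a sign of assembled complex I, but only its mRNA was measured here. The most abundant complex I mRNA was NDUFA13, at 257 and 299 FPKM, and the least abundant NDUFA5, at 3.72 and 3.63 FPKM. NDUFS5 (218 and 226 FPKM), NDUFA6 (52.0 and 52.3 FPKM) and NDUFB1 (22.4 and 22.5 FPKM) were nearly level. The groups named NDUFA, with 13 genes, and NDUFB, with 11 genes, had medians of 0.14 and 0.19, or 0.03 and 0.07 after the shift. NDUFC2-KCTD14, at 5.17 and 10.71 FPKM, shares exons with NDUFC2, at 17.99 and 21.91 FPKM, and reads of these overlapping loci cannot be separated with certainty. Its log2 fold change of 1.04 was 0.92 after the shift was subtracted.

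**Figure D3:**
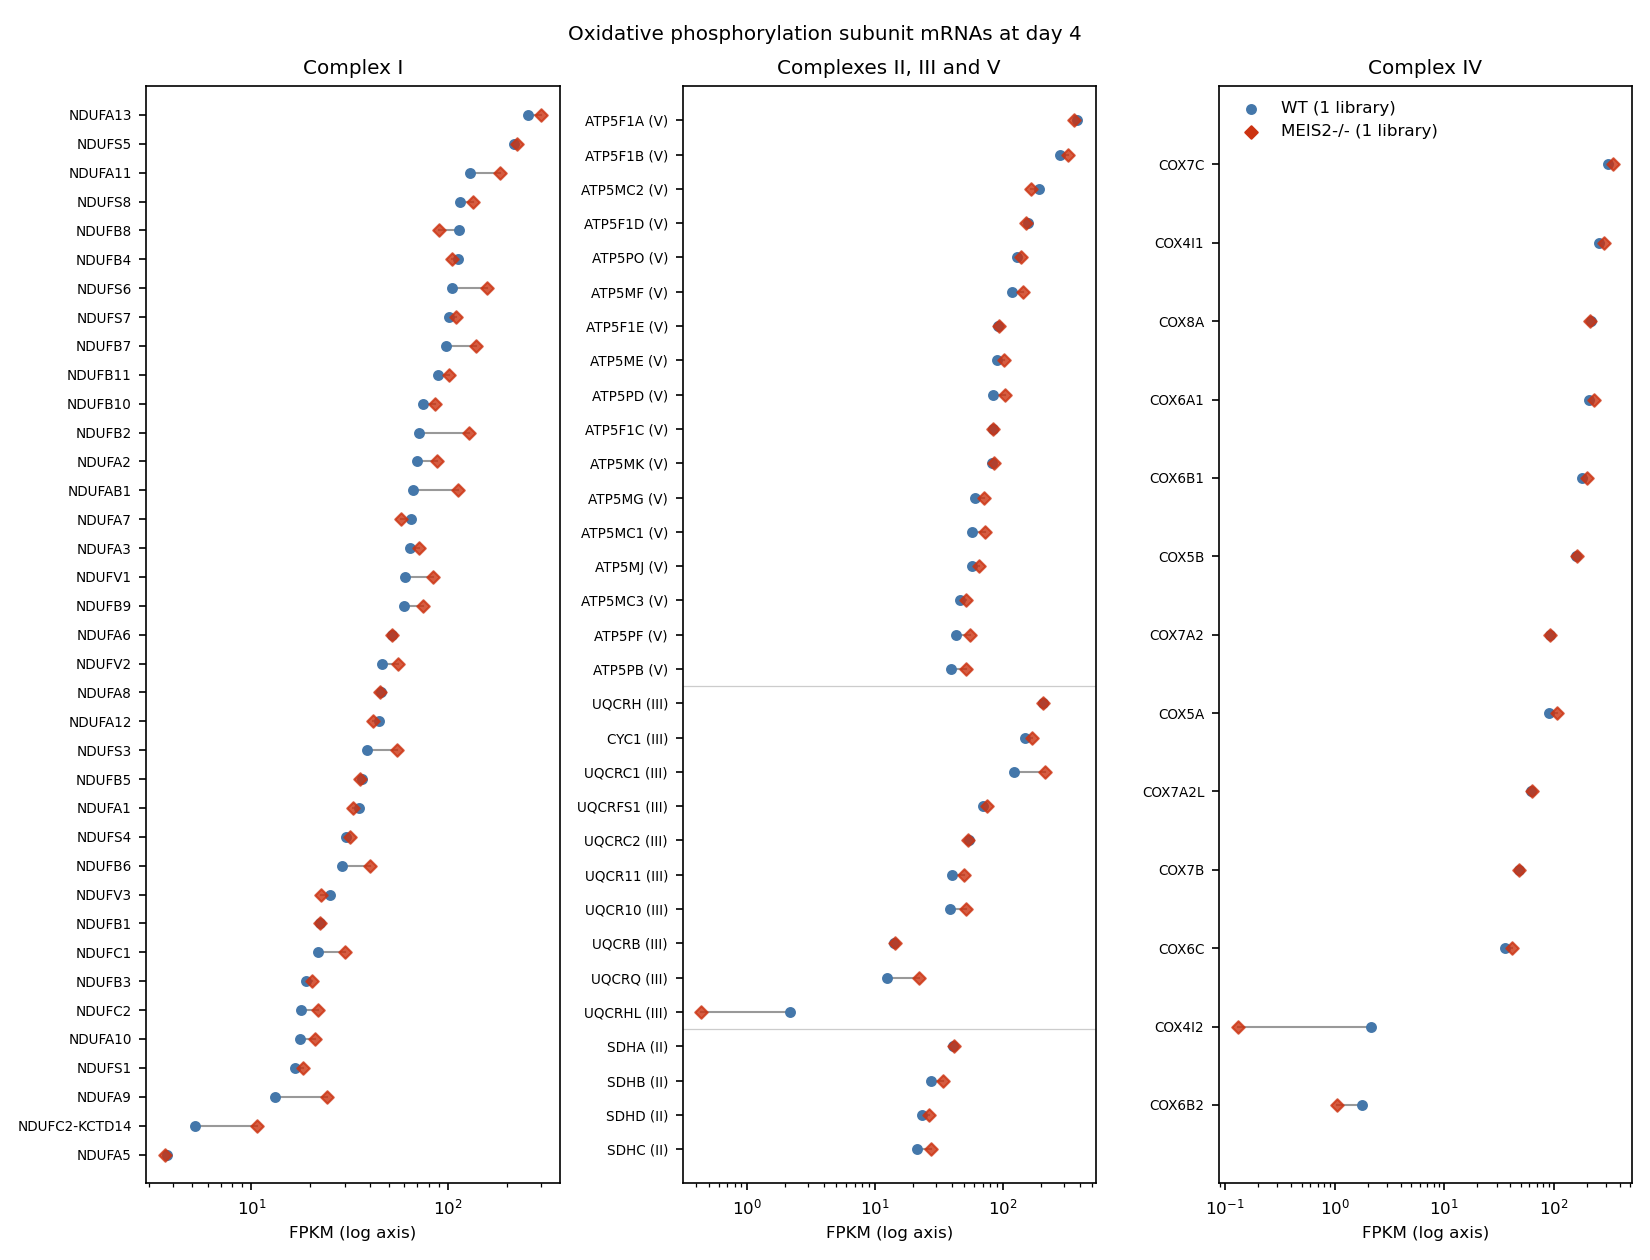
FPKM (horizontal log axis, a separate range in each panel) of the named subunit genes in the WT library (circles) and the MEIS2-/- library (diamonds), 1 row per gene, by complex. Most symbols of a gene overlap or lie close together, and the long lines belong to COX4I2 (2.13 and 0.13 FPKM) and UQCRHL (2.15 and 0.44 FPKM).

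Complex II, succinate dehydrogenase, also serves in the TCA cycle, and each of its 4 subunit mRNAs was slightly higher in MEIS2-/- cells (background 59.3%). The median log2 fold change was 0.25, or 0.13 after the shift, when 3 remained higher (background 50.4%) and 1 was lower. SDHA, the flavoprotein, was at 40.7 FPKM (WT) and 41.6 FPKM (MEIS2-/-). The iron-sulfur subunit SDHB was at 27.6 and 34.4 FPKM, a log2 fold change of 0.31. The membrane anchors SDHC (21.5 and 27.4 FPKM) and SDHD (23.3 and 26.4 FPKM) had log2 fold changes of 0.35 and 0.18. All 4 genes were expressed within a narrow range in each library.

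Complex III passes electrons from ubiquinol to cytochrome c. In MEIS2-/- cells 8 of its 10 genes were higher (background 59.3%), and 5 of 10 after the shift (background 50.4%). The redox subunits differed little. CYC1, cytochrome c1, was at 151 FPKM (WT) and 168 FPKM (MEIS2-/-), and UQCRFS1, the Rieske protein, at 70.6 and 75.7 FPKM, with log2 fold changes of 0.16 and 0.10. The core proteins UQCRC1 and UQCRC2 form a matrix-facing pair but were unlike each other. UQCRC1 was at 122 FPKM (WT) and 214 FPKM (MEIS2-/-), a log2 fold change of 0.81, while UQCRC2 was at 54.5 and 54.0 FPKM. UQCRQ, a small subunit, was at 12.6 and 22.3 FPKM (log2 fold change 0.83). UQCR10 and UQCR11 had log2 fold changes of 0.40 and 0.33, and UQCRB, at 14.2 and 14.4 FPKM, had 0.02. UQCRH, the hinge protein, was nearly level at 207 and 208 FPKM. UQCRHL is an intronless near-copy of UQCRH, and it was at 2.15 FPKM (WT) and 0.44 FPKM (MEIS2-/-), a log2 fold change of -2.06. Its WT value was 1.03% of the pair's sum and its MEIS2-/- value 0.21%. How reads were assigned between such copies is uncertain.

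Complex IV, cytochrome c oxidase, had 13 of its 17 genes at 1 FPKM or more, with a median log2 fold change of 0.02. The sign of this median turned to -0.09 after the shift was subtracted, and without the genes under 5 FPKM the median was 0.14. The 10 main isoforms, in contrast, lay close together. Their log2 fold changes ran from -0.02 for COX8A to 0.25 for COX5A. COX7C was the most abundant, at 310 FPKM (WT) and 349 FPKM (MEIS2-/-). COX4I1, whose protein is an early partner in assembly of the enzyme, was at 260 and 287 FPKM, and COX6A1 was at 210 and 235 FPKM. COX5A (90.6 and 108 FPKM) and COX5B (160 and 162 FPKM) had log2 fold changes of 0.25 and 0.02. COX7B, at 47.9 and 48.6 FPKM, and COX6C, at 35.7 and 41.4 FPKM, were the least abundant main isoforms. COX7A2L, which takes part in joining complexes III and IV into supercomplexes, was at 62.4 and 62.8 FPKM.

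The second isoforms of complex IV were scarce and did not share this uniformity. COX4I2, the isoform known from lung and from cells at low oxygen, was at 2.13 FPKM (WT) and 0.13 FPKM (MEIS2-/-). It passed the filter through the WT library alone, and the size of its log2 fold change of -3.28 depends on the pseudocount. With a pseudocount of 1 or 0.01 FPKM it was -1.47 or -3.93, past 2-fold each time. COX4I2 made up 0.81% of the summed FPKM of COX4I1 and COX4I2 in WT cells and 0.05% in MEIS2-/- cells, so the sum of the pair, 263 and 287 FPKM, followed COX4I1. COX6B2, a testis isoform, was at 1.76 and 1.06 FPKM (log2 fold change -0.68), or 0.96% and 0.53% of the COX6B pair. The other 4 second isoforms were under 1 FPKM in both libraries. COX6A2, of heart and skeletal muscle, was listed at 0 in WT cells and at 0.10 FPKM in MEIS2-/- cells, and COX7A1, also of muscle, at 0.13 and 0.41 FPKM. COX7B2 was at 0.07 FPKM in WT cells and listed at 0 in MEIS2-/- cells, and COX8C was at 0.19 and 0.17 FPKM. Differences at such levels are given as values only.

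NDUFA4 (COXFA4), once assigned to complex I and since placed in complex IV, was at 56.3 FPKM (WT) and 61.5 FPKM (MEIS2-/-), a log2 fold change of 0.13. Its paralog NDUFA4L2 (COXFA4L2), a known hypoxia-induced gene that the rule leaves out, was at 21.0 FPKM (WT) and 0.20 FPKM (MEIS2-/-), a log2 fold change of -6.14. NDUFA4L2 was 27.2% of the summed FPKM of this pair in WT cells and 0.32% in MEIS2-/- cells. Both COX4I2 and NDUFA4L2 were thus lower in MEIS2-/- cells while their main partners were not. CHCHD2, which is known to bind complex IV and to act on the promoter of COX4I2, was at 101 FPKM (WT) and 0.18 FPKM (MEIS2-/-). Its log2 fold change of -8.50 was the lowest among all 13075 genes. Whether these differences are linked was not tested.

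Complex V, ATP synthase, had 17 of its 19 genes at 1 FPKM or more. Each of the 17 differed by less than 1.5-fold, as did 67.6% of all genes compared. The median log2 fold change was 0.19, or 0.07 after the shift, when 10 were higher (background 50.4%) and 7 lower. The 5 subunits of the catalytic F1 head had a median of 0.02, or -0.10 after the shift. ATP5F1A, the alpha subunit and the most abundant mRNA among the nuclear subunit genes compared, was at 381 FPKM (WT) and 359 FPKM (MEIS2-/-). ATP5F1B, the catalytic beta subunit, was at 280 and 327 FPKM, a log2 fold change of 0.22. ATP5F1C (83.5 and 84.6 FPKM), ATP5F1D (159 and 152 FPKM) and ATP5F1E (91.6 and 94.4 FPKM) had log2 fold changes of 0.02, -0.06 and 0.04. All 4 genes of the peripheral stalk, which holds the head still, were higher (background 59.3%), with a median of 0.34. After the shift 3 were higher (background 50.4%) and ATP5PO was lower, with a median of 0.23. ATP5PB was at 39.4 and 51.3 FPKM and ATP5PF at 43.1 and 56.0 FPKM, each with a log2 fold change of 0.38. ATP5PD had 0.31 and ATP5PO 0.10. The 5 small membrane subunits ATP5ME, ATP5MF, ATP5MG, ATP5MJ and ATP5MK had log2 fold changes from 0.05 to 0.29. After the shift these ran from -0.06 for ATP5MK to 0.18 for ATP5MF.

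The c ring, the rotor of complex V, is built from a protein that 3 genes encode with the same mature sequence and different import peptides. ATP5MC2 supplied most of their mRNA, at 193 FPKM (WT) and 167 FPKM (MEIS2-/-). ATP5MC1 was at 58.1 and 73.3 FPKM and ATP5MC3 at 46.5 and 51.4 FPKM. The sum of the 3 genes was nearly level, at 297 and 292 FPKM, with ATP5MC2 at 64.8% of it in WT cells and 57.3% in MEIS2-/- cells and ATP5MC1 at 19.5% and 25.1%. The order of the 3 genes was the same in both libraries. ATP5MGL, a near-copy of ATP5MG, was at 0.52 and 0.36 FPKM, and the readthrough ATP5MF-PTCD1 was listed at 0 in WT cells and at 0.43 FPKM in MEIS2-/- cells. Both were under 1 FPKM and were left out of the counts.

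Levels also differed between complexes. FPKM is scaled by transcript length, so medians of levels can be set side by side. In WT cells the median level was 92.9 FPKM in complex IV, 83.7 FPKM in complex V, 49.7 FPKM in complex I, 47.2 FPKM in complex III and 25.5 FPKM in complex II. In MEIS2-/- cells the medians were 108, 94.4, 55.6, 52.8 and 30.9 FPKM, in the same order. Complexes I and III lay close together, and their order in WT cells reverses without NDUFC2-KCTD14 and UQCRHL. The summed FPKM was higher in MEIS2-/- cells by 17.6% for complex I, 14.7% for complex II, 20.6% for complex III, 7.78% for complex IV and 6.56% for complex V. After the shift was subtracted the sums of complexes I, II and III were higher by 8.61%, 5.92% and 11.4%, and those of complexes IV and V turned to -0.45% and -1.57%. In complex III the sums were 712 and 859 FPKM, of which UQCRC1 was 122 and 214 FPKM.

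Genes that build and supply the complexes were described from lists written by hand. Of 16 assembly factors of complex I, 13 were higher and 3 lower, with a median log2 fold change of 0.38, or 0.26 after the shift with the same counts. Over all genes compared 59.3% were higher and the median was 0.12. NDUFAF7, a mitochondrial methyltransferase, was at 7.71 FPKM (WT) and 16.8 FPKM (MEIS2-/-), the 1 assembly factor past 2-fold (log2 fold change 1.11). TMEM186 lay lowest in this list, at 9.21 and 7.21 FPKM. The 4 assembly factors of complex II had a median of -0.22, or -0.33 after the shift. SDHAF4 was at 14.8 and 11.5 FPKM and SDHAF2, which attaches the flavin to SDHA, at 15.02 and 16.90 FPKM. The 6 factors of complex III had a median of 0.10 and the 23 factors of complex IV a median of 0.12, which were -0.02 and 0.00 after the shift. In the latter, COA4 was the highest, at 62.7 and 95.0 FPKM (log2 fold change 0.60), and CMC1 the lowest, at 14.4 and 10.4 FPKM (-0.47). For complex V, 4 of 5 genes were higher, 3 of 5 after the shift, among them ATPAF2, at 8.56 and 13.1 FPKM, and the inhibitor ATP5IF1, at 98.6 and 116 FPKM.

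Cytochrome c (CYCS), which carries electrons from complex III to complex IV, was at 15.38 FPKM (WT) and 17.99 FPKM (MEIS2-/-). HIGD1A, a hypoxia-induced partner of complex IV, was at 21.9 and 29 FPKM, while PDK1, which limits the oxidation of pyruvate in mitochondria and is induced at low oxygen, was at 12.03 and 7.93 FPKM (log2 fold change -0.60). Of the genes named above as linked to low oxygen, HIGD1A was thus higher (1.32-fold), while COX4I2, NDUFA4L2 and PDK1 were lower. The part of oxygen in these values was not tested. Of 13 TCA cycle genes outside complex II, 12 were higher (background 59.3%) and 10 after the shift (background 50.4%), with medians of 0.23 and 0.12 and a highest log2 fold change of 0.80 for OGDH, at 25.01 and 43.47 FPKM. DLST, at 39.1 and 36.6 FPKM, was the 1 lower gene. Of 15 regulators of mitochondrial biogenesis, 13 reached 1 FPKM and 11 of them were higher with or without the shift, with a median of 0.33, or 0.22 after it. NRF1 was at 5.85 and 7.40 FPKM, GABPA at 3.48 and 5.53 FPKM, and YY1 at 27.3 and 34.7 FPKM, while TFB1M was at 9.47 and 8.90 FPKM. PPARGC1A, the coactivator PGC-1alpha, was at 0.21 and 0.32 FPKM, under the filter.

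Glycolysis genes differed from the subunit genes by far more than these lists. In MEIS2-/- cells 15 of 16 glycolysis genes were lower (background 40.6%) and 9 passed 2-fold (background 7.97%), and the median of this list was -1.09. Their summed FPKM was 12826 in WT cells and 5824 in MEIS2-/- cells, while that of the 82 subunit genes went from 6941 to 7796. LDHA, which turns pyruvate into lactate, was at 722 and 126 FPKM. ALDOC, an aldolase, lay lowest at 100.3 and 15.03 FPKM, and PFKM highest at 33.4 and 33.8 FPKM. The interquartile range of the glycolysis genes ran from -1.83 to -0.85, and that of the subunit genes from 0.01 to 0.32.

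Cell markers moved between the libraries much more than the subunit genes. All 8 endothelium and hemogenic endothelium markers were lower in MEIS2-/- cells, with summed FPKM of 556 and 125, and CDH5, which defines endothelium, was at 15.2 and 5.02 FPKM. POU5F1 (286 and 1454 FPKM) and NANOG (17.1 and 70.8 FPKM), markers of undifferentiated cells, were higher, and SOX2 was near 0 at 0.09 and 0.15 FPKM. The 5 visceral endoderm markers were higher, with sums of 409 and 921 FPKM, of which APOA1 alone was 401 and 879 FPKM. TTR, AFP and APOB were under 1 FPKM in WT cells and at 5.31, 3.91 and 3.72 FPKM in MEIS2-/- cells. The 3 of 4 cardiac mesoderm markers that reached 1 FPKM were each lower, with sums of 65.6 and 20.4 FPKM. Most of these sums was NKX2-5, at 59.77 and 16.55 FPKM. The cultures were not sorted, so fewer cells of a type and less RNA per cell cannot be told apart. The part of cell composition in the subunit values, including the lower COX4I2, was not tested.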

How the data were processed

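RNA-Seq of 1 WT and 1 MEIS2-/- library of H1-derived cells at day 4 was performed by BGI. The authors deposited FPKM values per NCBI Gene number. The submitters' processing notes name hg19, RSEM, Bowtie and BWA, without versions or roles. Because FPKM holds no counts and there is 1 library per genotype, no test was made and no interval was computed.

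Here 17365 of 17397 Gene numbers matched a RefSeq symbol. Log2 fold changes were taken after adding 0.1 FPKM, over 13075 genes at 1 FPKM or more in a library, and a difference of 2-fold was counted. Transcript lengths came from GENCODE 29 for 98.2% of these genes. Alternatives were pseudocounts of 1 and 0.01 FPKM, no filter, a filter at 5 FPKM, a 1.5-fold threshold and 2 rescalings, one to a median log2 fold change of 0 and one by a trimmed mean of log ratios. The computation was tested on simulated data. Subunit genes could be named, except 1 that enters the counts and is not reported here, as could the targeted gene, cell markers and the extreme genes of each list. Other list genes in the text (CDH5, LDHA, NRF1, YY1, PPARGC1A) were chosen after their values were seen. Members, lists and promoter motifs were chosen with earlier results of these data known. Subunit genes have many processed pseudogenes, which can share reads with them. Python 3.11.15, numpy 2.4.6, pandas 2.3.3 and matplotlib 3.10.9 were used.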

Additional observations from a re-analysis of the deposited data

How the results depend on the processing

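No paired analysis was possible because each genotype has 1 library, so no replicate could be left out either. Over 10 alternatives, 59 values were computed, and 36 stayed within 0.1 (log2) of the reported median or within 1.5 times the reported count. The number of subunit genes at least 2-fold lower (2) was 0 with a filter at 5 FPKM, which removes COX4I2 and UQCRHL, and 1 without the readthrough loci and near-copies, an alternative added after seeing the data. The number at least 2-fold higher (1) was 4 without a filter, 7 at 1.5-fold, and 0 with a pseudocount of 1 FPKM, under either rescaling and without the readthrough loci and near-copies. With the rescaling to a median of 0 and with the trimmed mean, respectively, 36 and 35 subunit genes were lower instead of 18. In the same order the median of all subunit genes was 0.038 and 0.048, that of complex I 0.077 and 0.088, of complex II 0.13 and 0.14, of complex III 0.014 and 0.025, of complex IV -0.092 and -0.082, and of complex V 0.072 and 0.082. These shifts follow from the rescaling itself. With a filter at 5 FPKM the median of complex IV was 0.14. With COXFA4 added after seeing the data, the median of all subunit genes was 0.15. The unknown depth limits every value near 0 FPKM.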

Other observations

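The medians of 2 lists of ribosomal protein genes lay on either side of that of the subunit genes. Their levels were unlike, with a median in WT cells of 22.0 FPKM (mitochondrial) and 902 FPKM (cytosolic), beside 60.65 FPKM for the subunit genes. The products of the 77 mitochondrial ribosomal protein genes translate the subunits encoded in mitochondrial DNA. Of these genes 60 had more FPKM in the MEIS2-/- library (background 59.3%), and the median log2 fold change was 0.24. After the shift of all genes was subtracted 51 were higher (background 50.4%). MRPL20 was the highest, at 40.9 FPKM (WT) and 82.8 FPKM (MEIS2-/-), and MRPL2 the lowest, at 29.4 and 22.6 FPKM. Of 78 cytosolic ribosomal protein genes, 50 were lower (background 40.6%) and 28 higher, with a median of -0.05. All 78 differed by less than 1.5-fold, as did 67.6% of all genes compared. RPL24 was at 1072 and 867 FPKM and RPS26 at 192 and 262 FPKM, the extremes of this list. After the shift the medians were 0.13 for the mitochondrial and -0.16 for the cytosolic list, beside 0.04 for the 82 subunit genes.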
